A study of Arabidopsis thaliana with 6 samples.

Results

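The genes described here are those of sugar starvation and of amino acid breakdown in Arabidopsis thaliana, 41 loci named by their identifiers. They were chosen by their role and with the difference between the f1f3 mutant and the wild type already known, so their values in that comparison are a description, threshold counts included, and no p is given for them there. Of the 41 loci, 37 had a value among the 24439 genes of the data and 36 passed the filter on low values. The 4 bZIP transcription factor loci of the list, AT5G49450 (bZIP1), AT2G18160 (bZIP2), AT4G34590 (bZIP11) and AT3G62420 (bZIP53), were not analysed here.

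RNA was sequenced from whole seedlings that had spent 4 days at 22 °C without light, after 12 h in white light that followed a cold treatment of the seeds for 3 days at 4 °C. The Col group is the wild type. The f1f3 group is homozygous for the fypp1 and fypp3 mutations in FYPP1 and FYPP3, which encode catalytic subunits of protein phosphatase 6. The pifq group is homozygous for mutations in 4 PIF genes, transcription factors that hold back light-type development in darkness. The label spells these genes irregularly, and they were taken to be pif1, pif3, pif4 and pif5. Each group had 2 libraries, given as biological replicates, and the sugar content of the medium is not given in the labels. No rescued line was included, so a mutant group stands for its genotype as grown here.

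A dark-grown seedling lives on its seed reserves, and cells that run out of sugar turn to protein and amino acids as fuel. In Arabidopsis leaves, sugar loss and darkness raise a set of dark-inducible (DIN) genes, and the SnRK1 kinase and bZIP factors of the S1 and C groups are known to act on several of them. Branched-chain amino acids, lysine, threonine and proline are then broken down, and the branched-chain and proline routes run in mitochondria. Part of the electrons released pass through the electron transfer flavoprotein to the respiratory chain.

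The libraries held 17.9 to 27.7 M reads. The values are reads scaled per library. In f1f3 both FYPP transcripts were reduced, to 285 to 386 for FYPP1 and 260 to 285 for FYPP3, from at least 583 in Col. In pifq, PIF3 and PIF5 were reduced, whereas PIF1 and PIF4 transcripts were not lower than in Col. Markers of etiolated seedlings (3 genes) took 0.461 to 0.52% of Col reads, 0.329 to 0.339% in f1f3 and 0.142 to 0.144% in pifq. The 4 markers of cotyledon and leaf mesophyll were the photosynthesis genes CAB2, LHB1B1, LHCA1 and RBCS1A (none at 0). They took 1.11 to 1.14%, 0.35 to 0.467% and 2.01 to 2.7%, in the same order. Root markers (8 genes, none at 0) took 0.0175 and 0.0264% in Col, 0.0261 and 0.0306% in f1f3, and 0.0124 and 0.018% in pifq. Their part in the results below was not tested. In pifq replicate 1, 15 seed storage and late embryogenesis transcripts took 0.0961% of reads, against 0.000248 to 0.00144% elsewhere, and the count of calls, the median and the called genes in pifq are also given without that library. In whole seedlings, fewer cells of a type and less RNA per cell cannot be told apart.

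The 250 bases before the annotated start were searched on both strands for 4 short motifs. The G-box CACGTG is bound by PIF and bZIP proteins, and CACATG is an E-box that PIF proteins also bind. ACTCAT is a bZIP site known from the proline dehydrogenase promoter, and TATCCA a sugar starvation element known from rice amylase promoters. The regions of ASN1, PRODH1, THA1 and the E1α gene AT1G21400 are shown as examples of where a motif lies, and that of ASN2, a relative of ASN1, as one with none of the 4. BCAT2, DIN2, DIN10 and BGAL4 also hold none, P5CDH holds ACTCAT, and ETFβ and ASN3 hold TATCCA. Whether holding a motif goes with a change in either mutant was not tested. Sequences are from RefSeq (TAIR10.1), 5′ to 3′ on the gene's strand, with the motifs in capitals.
ASN1, chr3:17441432-17441681, minus strand: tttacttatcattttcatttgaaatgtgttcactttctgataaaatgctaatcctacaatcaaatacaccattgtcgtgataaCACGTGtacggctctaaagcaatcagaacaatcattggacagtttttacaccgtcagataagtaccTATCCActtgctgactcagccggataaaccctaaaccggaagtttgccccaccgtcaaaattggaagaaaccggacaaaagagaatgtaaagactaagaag
PRODH1, chr3:12451557-12451806, minus strand: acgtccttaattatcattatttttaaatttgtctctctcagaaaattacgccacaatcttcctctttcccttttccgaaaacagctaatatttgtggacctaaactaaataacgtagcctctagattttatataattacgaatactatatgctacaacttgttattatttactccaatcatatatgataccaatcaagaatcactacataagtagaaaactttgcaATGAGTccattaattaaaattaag
THA1, chr1:2747968-2748217, minus strand: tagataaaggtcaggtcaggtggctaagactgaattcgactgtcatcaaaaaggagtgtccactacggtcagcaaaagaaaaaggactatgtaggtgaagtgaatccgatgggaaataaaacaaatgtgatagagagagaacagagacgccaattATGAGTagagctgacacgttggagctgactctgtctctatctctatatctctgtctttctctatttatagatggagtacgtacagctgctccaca
AT1G21400, chr1:7492963-7493212, plus strand: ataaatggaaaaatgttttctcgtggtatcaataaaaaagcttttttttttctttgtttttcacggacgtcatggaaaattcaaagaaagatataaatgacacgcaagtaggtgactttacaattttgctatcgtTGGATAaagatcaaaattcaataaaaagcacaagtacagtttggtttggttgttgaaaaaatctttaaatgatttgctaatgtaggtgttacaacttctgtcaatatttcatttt
ASN2, chr5:25968785-25969034, plus strand: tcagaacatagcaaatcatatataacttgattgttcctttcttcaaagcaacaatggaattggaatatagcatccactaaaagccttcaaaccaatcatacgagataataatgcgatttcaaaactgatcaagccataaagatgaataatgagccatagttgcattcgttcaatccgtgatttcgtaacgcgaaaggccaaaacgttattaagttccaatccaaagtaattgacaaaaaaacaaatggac
In ASN1 the G-box began 167 bases before the start, with TATCCA nearer to it. In PRODH1 and THA1 the ACTCAT began 24 and 95 bases before the start. There ACTCAT lies on the opposite strand and is printed as ATGAGT, and TATCCA of AT1G21400 is likewise printed as TGGATA. A G-box was present for 3 of the 37 genes (8.11%; ASN1, DIN11 and GDH1), against 6.49% of 27443 protein-coding genes. CACATG was present for 4 (10.8%, against 11.1%), ACTCAT for 5 (13.5%, against 12.3%) and TATCCA for 9 (24.3%, against 13.6%). For the first 3 motifs the share was near that of all genes. Among the 45 other genes of the same pathways described below, TATCCA was present for 6 (13.3%). None of the shares was tested.

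Nearly all of these transcripts were lower in f1f3 than in Col, and fewer and smaller differences were seen in pifq. Together the 37 genes took 0.459 and 0.55% of reads in the Col libraries, 0.178 and 0.13% in f1f3, and 0.247 and 0.317% in pifq. In f1f3, 30 of the 36 tested genes were lower than in Col at a Benjamini-Hochberg adjusted p under 0.05 in limma, 1 was higher and 5 did not pass. Among all 20581 genes tested, 12.8% were lower and 11.6% higher by the same rule. Both f1f3 libraries lay below both Col libraries for 32 of the 36 genes and above them for 1 (33.0% and 32.8% of all genes). The median log2 fold change of the 36 genes was -1.82, beside 0.0 over all genes. Because the genes were selected on this contrast, nothing further is read from these counts or from the smaller differences in pifq.

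**Figure D1:**
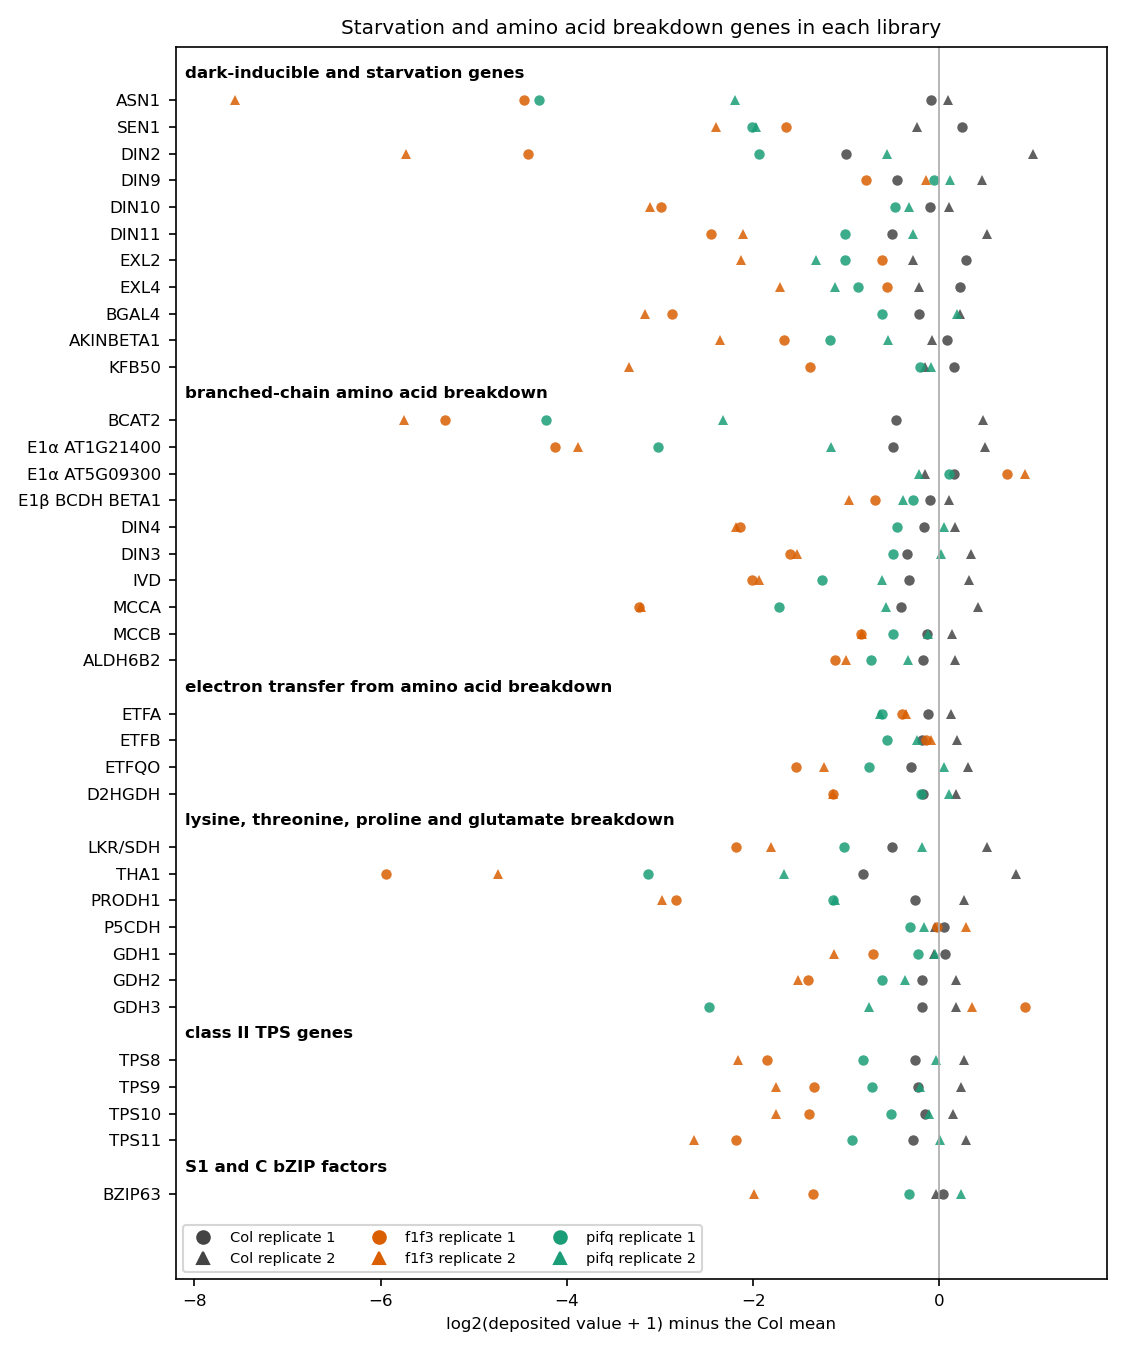
Level of each of the 37 genes in the 6 libraries, as log2 of the deposited value plus 1 minus the mean of the Col libraries on the same scale. Colours give the genotype and symbols the replicate. Both f1f3 points lie left of both Col points for 32 of the 36 tested genes (33.0% of all genes). Both pifq points lie left of both Col points for 18 of the 36 (27.4% of all genes) and overlap them for 18.

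In pifq, 3 of the 36 genes fell (limma, adjusted p under 0.05) and none rose, while 2.87% of all genes fell and 3.61% rose. No gene rose at an unadjusted p under 0.05 either, nor with edgeR or DESeq2. The Col libraries in this comparison are also those of the contrast behind the choice of genes. The counts and adjusted p values given for these genes in pifq are therefore a description of them. Both pifq libraries lay below both Col libraries for 18 genes and above them for 0, against 27.4% and 27.1% of all genes, and the other 18 overlapped. The median log2 fold change was -0.47, with a range from -3.27 to 0.02. The median was -0.26 without pifq replicate 1, -0.73 without pifq replicate 2, -0.69 without Col replicate 1 and -0.24 without Col replicate 2. The genes that fell were SEN1, BCAT2 and PRODH1. Leaving out pifq replicate 1 gave a count of 2, leaving out Col replicate 2 gave 1, and leaving out either f1f3 library gave 5. DESeq2 on the recovered reads called 8. With the replicate number as a block 10 fell and none rose, although the labels do not say that the numbers pair the libraries.

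**Figure D2:**
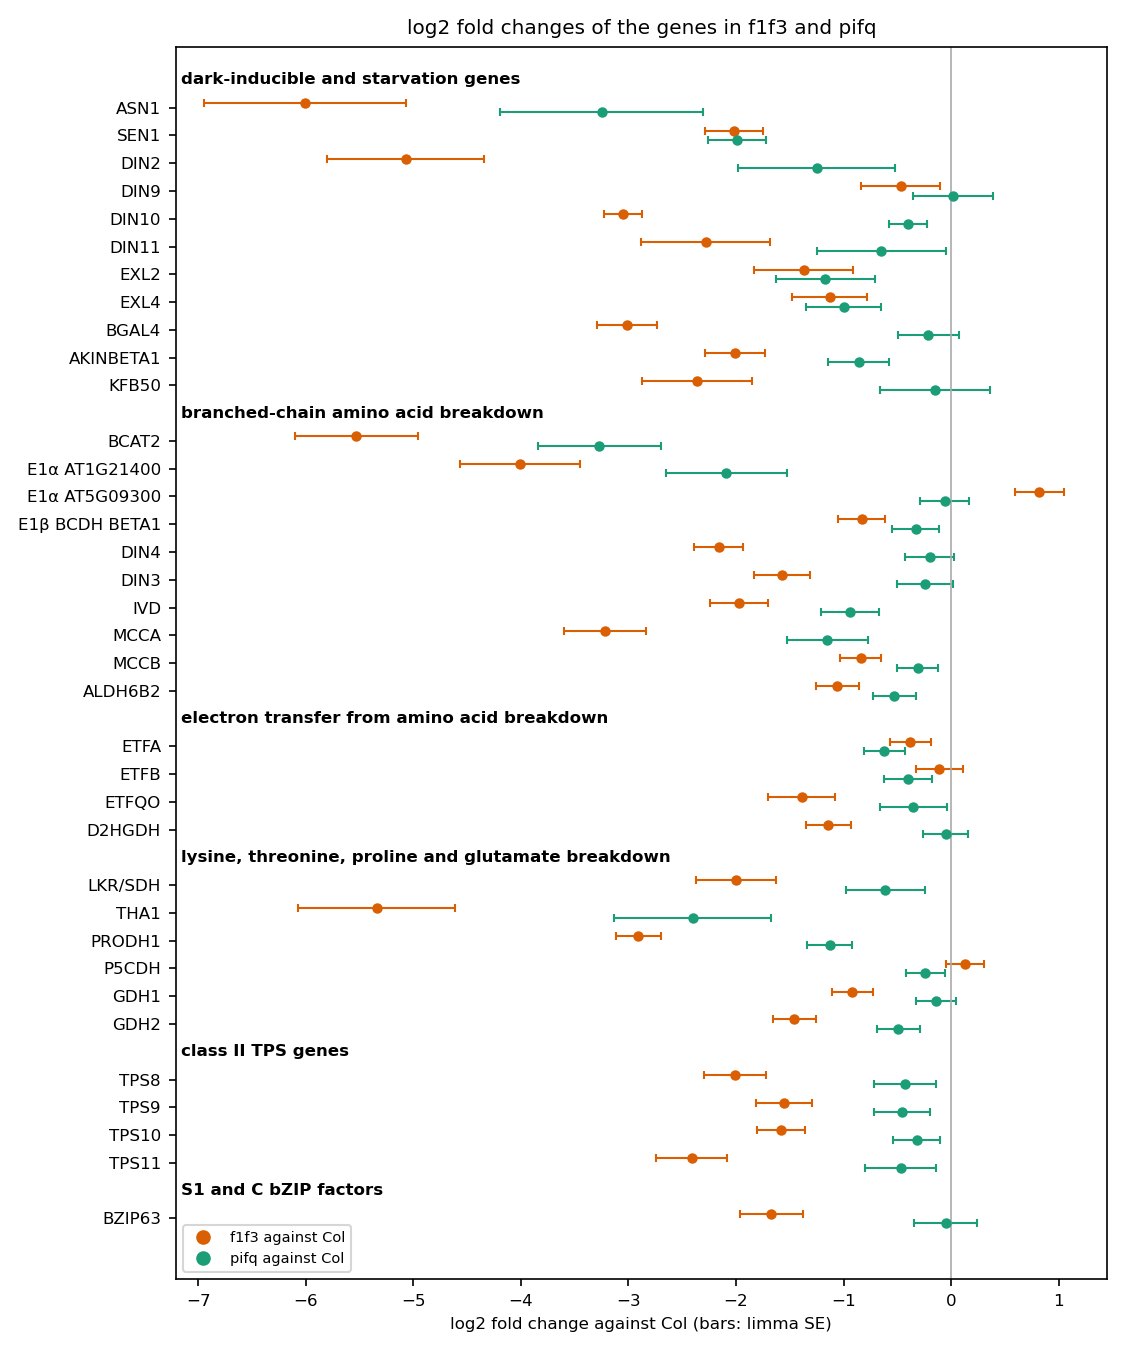
log2 fold change of the 36 tested genes in f1f3 (orange) and pifq (green) against Col, with bars for the limma standard error (n = 2 libraries per group). Both comparisons use the same Col libraries. In f1f3 the values run from -6.01 for ASN1 to 0.82 for the E1α gene AT5G09300, and in pifq from -3.27 for BCAT2 to 0.02 for DIN9.

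The 11 dark-inducible and starvation genes had a median log2 fold change of -2.28 in f1f3. ASN1 (AT3G47340, also DIN6; chr3:17437840-17441431) encodes a glutamine-dependent asparagine synthetase, which makes asparagine as a nitrogen carrier. Its values were 8736 and 9917 in Col, 422 and 48.3 in f1f3, and 470 and 2028 in pifq. Both mutants lay below Col in every library, and the libraries within each mutant differed widely. The log2 fold change was -6.01 (SE 0.94) in f1f3 and -3.25 (SE 0.94, limma adjusted p = 0.0835) in pifq. DIN2 (AT3G60140), a beta-glucosidase gene, stood at 257 and 1041 in Col, 23.3 and 8.8 in f1f3, and 134 and 351 in pifq. In f1f3 it rested on 22 and 10 reads, and pifq overlapped Col. Its log2 fold changes were -5.07 (SE 0.73) and -1.25 (SE 0.73, limma adjusted p = 0.341).

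SEN1 (AT4G35770, also DIN1), a senescence-associated gene used as a marker of dark starvation, had similar values in both mutants. Its values were 8871 and 6334 in Col, 2395 and 1419 in f1f3, and 1865 and 1914 in pifq. The log2 fold change was -2.02 (SE 0.27) in f1f3, and SEN1 fell by 1.99 on the log2 scale in pifq (SE 0.27, limma adjusted p = 0.00715). It passed the threshold in pifq without each single library in turn, pifq replicate 1 included.

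DIN10, BGAL4 and KFB50 had larger differences from Col in f1f3, the contrast on which the genes were chosen, than in pifq. DIN10 (AT5G20250), of the raffinose synthase family, stood at 8772 and 10130 in Col, 1187 and 1092 in f1f3, and 6775 and 7544 in pifq. BGAL4 (AT5G56870), a beta-galactosidase gene, stood at 4765 and 6436, 755 and 621, and 3621 and 6303. No f1f3 library came near a Col library for either gene, while pifq lay just below Col for DIN10 and overlapped it for BGAL4. Their log2 fold changes in f1f3 were -3.05 (SE 0.18) and -3.01 (SE 0.28), and in pifq -0.4 and -0.21 (limma adjusted p = 0.234 and 0.708). KFB50 (AT3G59940), an F-box protein gene of the family that targets phenylalanine ammonia-lyase, was at 2719 and 2187 in Col, 931 and 241 in f1f3, and 2107 and 2284 in pifq. The f1f3 libraries lay below Col and those of pifq overlapped it, with log2 fold changes of -2.36 (SE 0.51) and -0.15 (SE 0.51).

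AKINBETA1 (AT5G21170) encodes a beta subunit of the SnRK1 kinase, the energy sensor of plant cells. It was at 3012 and 2702 in Col, 899 and 558 in f1f3, and 1262 and 1947 in pifq, with log2 fold changes of -2.01 (SE 0.28) and -0.86 (SE 0.28, limma adjusted p = 0.109). EXL2 (AT5G64260) and EXL4 (AT5G09440), EXORDIUM-like genes of cell wall proteins, gave similar values in both mutants. EXL2 had log2 fold changes of -1.37 in f1f3 and -1.17 in pifq (SE 0.46 each), and did not pass in either. EXL4 was at -1.13 and -1.0 (SE 0.35 each), and its place past the threshold in f1f3 was lost under several alternatives: without the filter, with edgeR, with only the 4 libraries compared, and without Col replicate 1, Col replicate 2, f1f3 replicate 2 or either pifq library. DIN11 (AT3G49620), an oxygenase gene, had 18 and 55 reads in Col and 5 and 8 in f1f3, and DIN9 (AT1G67070), a mannose-6-phosphate isomerase gene, overlapped Col in both mutants.

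**Figure D3:**
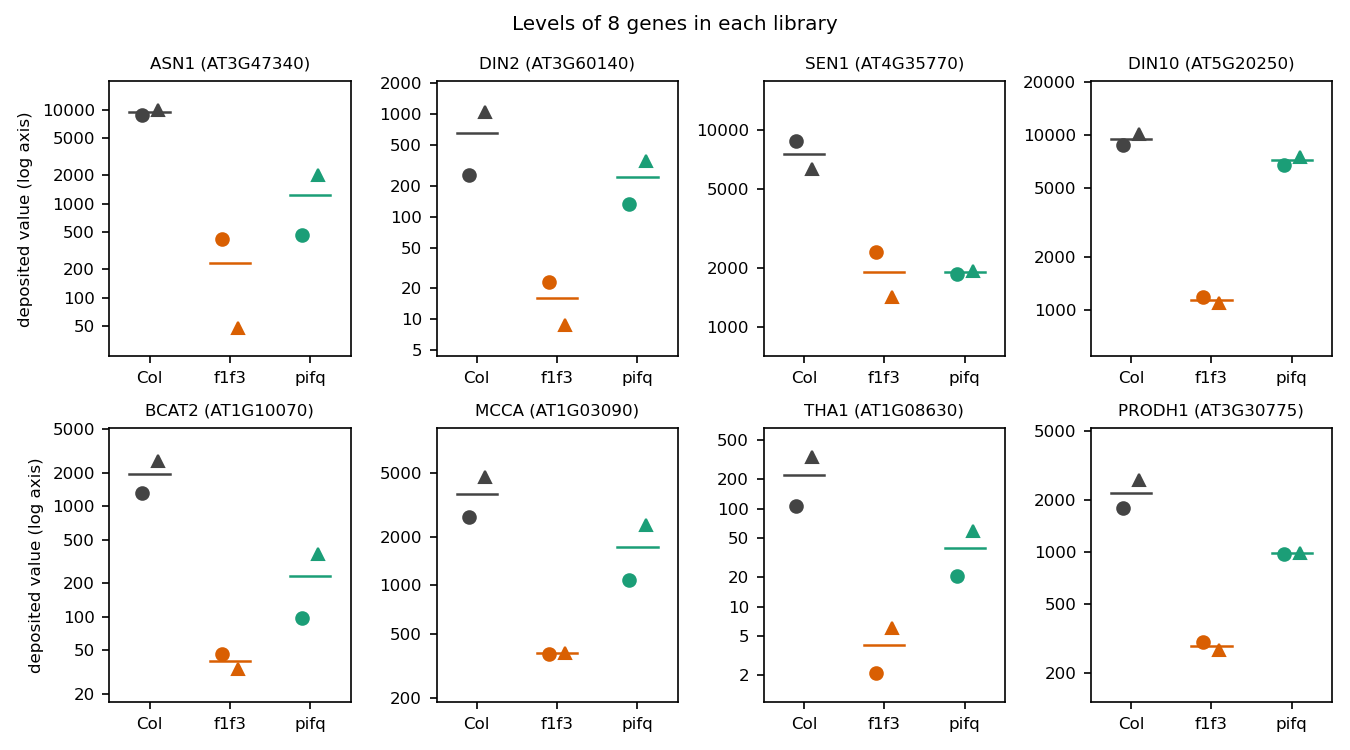
Deposited value of 8 genes in each library on log axes (circles replicate 1, triangles replicate 2, lines the group mean). f1f3 lies below Col for all 8 genes, and pifq overlaps Col for DIN2 but lies at the f1f3 level for SEN1.

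The 10 genes of branched-chain amino acid breakdown follow leucine, isoleucine and valine from transamination to acyl-CoA oxidation. Their median log2 fold change was -1.77 in f1f3 and -0.43 in pifq. In pifq 1 of the 10 fell, BCAT2, beside 2.87% of all genes. BCAT2 (AT1G10070; chr1:3288087-3290471), a branched-chain aminotransferase of the first step, was at 1333 and 2561 in Col, 45.5 and 33.4 in f1f3, and 98.2 and 368 in pifq. Every mutant library lay below every Col library. Its log2 fold change in f1f3 was -5.53 (SE 0.57), and it fell by 3.27 on the log2 scale in pifq (SE 0.57, limma adjusted p = 0.0170). Without pifq replicate 1 the pifq value was -2.33 (adjusted p = 0.0436), and without Col replicate 2 it was -2.8 (adjusted p = 0.080).

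The keto acids made by the aminotransferases are oxidised by a dehydrogenase complex of E1α, E1β, E2 and E3 subunits, and its genes differed in direction and size. The E1α gene AT1G21400 was at 789 and 1568 in Col, 62.5 and 74.6 in f1f3, and 137 and 497 in pifq. The other E1α gene, AT5G09300, was at 194 and 157 in Col, 290 and 330 in f1f3, and 187 and 150 in pifq. The first was low in both mutants and the second was the only one of the 36 genes that passed as higher in f1f3. Their log2 fold changes in f1f3 were -4.01 (SE 0.56) and 0.82 (SE 0.23), and in pifq -2.09 (SE 0.56, limma adjusted p = 0.0657) and -0.06 (SE 0.23, adjusted p = 0.912). The higher value of AT5G09300 no longer passed once any one Col or f1f3 library was left out. The coding sequences of the pair are 71.3% identical over aligned bases, with no identical run longer than 18 bases.

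Of the E1β genes, DIN4 (AT3G13450) had a log2 fold change of -2.16 (SE 0.23) in f1f3 and BCDH BETA1 (AT1G55510) one of -0.83 (SE 0.22). DIN3 (AT3G06850), the E2 subunit gene, was at -1.57 (SE 0.26). In pifq the 3 genes ranged from -0.33 to -0.20 and none passed. DIN4 and BCDH BETA1 share 85.6% of their aligned coding bases and runs of up to 28 bases, so some of their reads could be shared, which was not measured.

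IVD (AT3G45300), isovaleryl-CoA dehydrogenase of leucine breakdown, was at 2016 and 3158 in Col, 627 and 659 in f1f3, and 1053 and 1645 in pifq. It was below Col in all mutant libraries, with log2 fold changes of -1.97 (SE 0.27) and -0.94 (SE 0.27, limma adjusted p = 0.0841). The next leucine enzyme, methylcrotonyl-CoA carboxylase, has an alpha subunit gene MCCA (AT1G03090) and a beta subunit gene MCCB (AT4G34030). MCCA was at 2651 and 4719 in Col, 377 and 383 in f1f3, and 1076 and 2371 in pifq. MCCB was at 1700 and 2052, 1040 and 1047, and 1326 and 1721. The alpha subunit was thus reduced further than the beta subunit in f1f3. Per kb of exon, the mean value in Col was 1344 for MCCA and 859 for MCCB, and in f1f3 it was 139 and 478. The log2 fold changes in f1f3 were -3.22 (SE 0.38) and -0.84 (SE 0.19), and in pifq -1.15 and -0.31, neither of which passed. ALDH6B2 (AT2G14170), methylmalonate semialdehyde dehydrogenase of valine breakdown, was at -1.06 (SE 0.20) in f1f3 and -0.53 (SE 0.20) in pifq.

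Electrons from IVD and from D2HGDH, which oxidises 2-hydroxyglutarate, pass to the electron transfer flavoprotein and on to ubiquinone by its oxidoreductase, ETFQO. The carrier itself differed little in f1f3. ETFα (AT1G50940) was at 370 and 440 in Col, 306 and 315 in f1f3, and 264 and 260 in pifq, and ETFβ (AT5G43430) was at 308 and 402, 320 and 332, and 238 and 297. Neither passed the threshold in either mutant. ETFQO (AT2G43400) was at 571 and 870 in Col, 242 and 298 in f1f3, and 417 and 730 in pifq. D2HGDH (AT4G36400) was at 375 and 482, 193 and 192, and 372 and 456. Both lay below Col in f1f3, at log2 fold changes of -1.39 (SE 0.31) and -1.14 (SE 0.21), and overlapped Col in pifq.

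The 6 tested genes of lysine, threonine, proline and glutamate breakdown had a median log2 fold change of -1.73 in f1f3 and -0.55 in pifq. In pifq 1 of the 6 fell, PRODH1, beside 2.87% of all genes. THA1 (AT1G08630; chr1:2743761-2747967) encodes a threonine aldolase, which splits threonine into glycine and acetaldehyde. It was at 107 and 335 in Col, 2.1 and 6.1 in f1f3, and 20.8 and 59.0 in pifq. In f1f3 these values rested on 2 and 7 reads, and no mutant library reached Col. The log2 fold changes were -5.34 (SE 0.73) and -2.40 (SE 0.73, limma adjusted p = 0.0963). PRODH1 (AT3G30775, also ERD5; chr3:12448636-12451556), proline dehydrogenase, was at 1788 and 2586 in Col, 302 and 271 in f1f3, and 975 and 991 in pifq. The 3 genotypes did not overlap. The log2 fold change in f1f3 was -2.91 (SE 0.21), and PRODH1 fell by 1.13 on the log2 scale in pifq (SE 0.21, limma adjusted p = 0.0208). That call was lost without Col replicate 2 (-0.86, adjusted p = 0.110), without pifq replicate 1 (-1.12, adjusted p = 0.108) and without pifq replicate 2 (-1.14, adjusted p = 0.0742).

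P5CDH (AT5G62530), the enzyme that takes the product of PRODH1 on to glutamate, did not follow it. P5CDH was at 1062 and 998 in Col, 1014 and 1253 in f1f3, and 827 and 921 in pifq, and did not pass in either mutant. LKR/SDH (AT4G33150), the bifunctional enzyme that starts lysine breakdown, was at 1923 and 3900 in Col, 603 and 779 in f1f3, and 1344 and 2401 in pifq (log2 fold changes -2.0 and -0.61, SE 0.37 each). Glutamate dehydrogenase releases ammonium from glutamate. GDH2 (AT5G07440) had log2 fold changes of -1.46 and -0.49 (SE 0.20 each), and GDH1 (AT5G18170) of -0.92 and -0.14 (SE 0.19 each), with the pifq values not passing. GDH3 (AT3G03910) had 0 to 9 reads per library and was not tested.

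Class II TPS proteins resemble trehalose-6-phosphate synthase, the enzyme that makes the sugar signal trehalose-6-phosphate. None of the 4 members passed in pifq. TPS11 (AT2G18700) was at 2036 and 3032 in Col, 544 and 399 in f1f3, and 1293 and 2497 in pifq (log2 fold changes -2.41 and -0.47, SE 0.33 each). TPS8 (AT1G70290), TPS9 (AT1G23870) and TPS10 (AT1G60140) were at -2.01, -1.55 and -1.58 in f1f3 and at -0.43, -0.46 and -0.32 in pifq. bZIP63 (AT5G28770), a C-group factor known as a SnRK1 target, was at 355 and 335 in Col, 135 and 86.0 in f1f3, and 274 and 405 in pifq. It lay below Col in f1f3 (log2 fold change -1.67, SE 0.29) and overlapped it in pifq, at -0.05 (SE 0.29, limma adjusted p = 0.943).

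Compared directly with f1f3, pifq had 21 of the 36 genes higher and 1 lower by the same threshold, beside 9.36% and 6.63% of all genes. The gene that was lower was AT5G09300, by 0.88 on the log2 scale, and the median of the 36 was 1.2. DIN2 (3.82), THA1 (2.95), BGAL4 (2.80) and DIN10 (2.65) were among those that passed. SEN1 (0.04), EXL4 (0.14) and EXL2 (0.21) differed least. ASN1 had a log2 difference of 2.76 and did not pass. Both comparisons use the f1f3 libraries on which the genes were chosen, and the count was 5 without f1f3 replicate 2, 6 without pifq replicate 2 and 21 without pifq replicate 1.

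Where an enzyme has several genes, the levels per kb of exon showed which gene supplied most transcript. ASN1 made up 86.3 and 87.5% of the transcripts for asparagine synthetases in Col, 15.3 and 1.79% in f1f3, and 9.56 and 28.8% in pifq. ASN2 (AT5G65010) made up 6.51 and 5.60% in Col, 38.5 and 45.2% in f1f3, and 69.1 and 56.3% in pifq. The family total was 3687 and 4125 per kb in Col, 1006 and 985 in f1f3, and 1791 and 2568 in pifq. The leading gene was therefore ASN1 in both Col libraries, ASN3 (AT5G10240) in f1f3 and ASN2 in pifq. AT1G21400 made up 72.2 and 86.5% of E1α transcript in Col, 12.1 and 12.6% in f1f3, and 31.8 and 68.0% in pifq. BCAT2 made up 46.4 and 66.2% of the transcript of 4 branched-chain aminotransferase genes in Col, 2.33 and 1.71% in f1f3, and 4.66 and 18.0% in pifq. The 4 include BCAT3 (AT3G49680), a plastid aminotransferase of synthesis. BCAT3 made up 28.6 and 16.6% in Col, 61.6 and 60.6% in f1f3, and 62.1 and 47.9% in pifq. The share of DIN4 in E1β transcript moved less, from 73.0 and 74.7% to 50.7 and 54.9% in f1f3. PRODH1 supplied 95.4 to 97.6% of proline dehydrogenase transcript in every library.

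**Figure D4:**
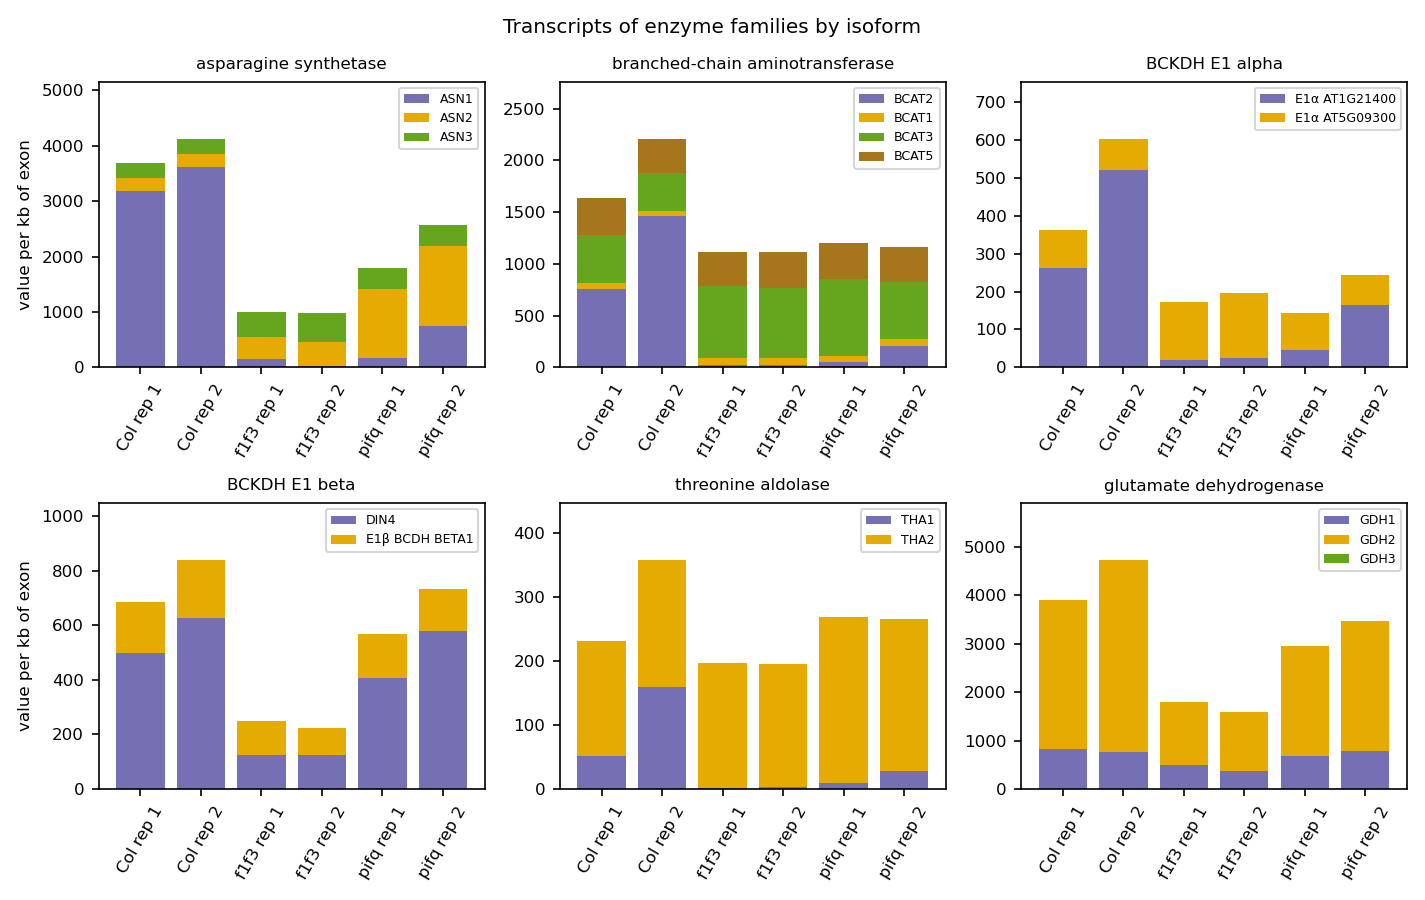
Value per kb of exon of the genes of 6 enzyme families in each library, stacked by gene, with linear axes from 0. ASN1 makes up 86.3 and 87.5% of the asparagine synthetase bars in Col but at most 28.8% in the mutants, and BCAT2 at most 2.33% of the aminotransferase bars in f1f3.

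Other genes of the same pathways were taken from a list made by pathway, with earlier results of these data known, and 45 of its 47 genes had a value. The counts and adjusted p values for this list are therefore a description of the listed genes. In f1f3 8 rose and 15 fell (limma, adjusted p under 0.05; median log2 fold change -0.28), where 11.6% of all genes rose and 12.8% fell. In pifq 2 rose and 5 fell (median -0.25), where 3.61% of all genes rose and 2.87% fell. Leaving out f1f3 replicate 2 lowered the f1f3 count from 23 to 7, and leaving out Col replicate 1 or 2 lowered it to 12 or 9. The pifq count of 7 became 2 once Col replicate 1 was left out, and 4 once Col replicate 2 or either pifq library was. With the replicate number as a block the pifq count was 13. Without pifq replicate 1 the calls of ASN2, DYL1, EXO and TPS1 in pifq held and those of MGL, GAD1 and HGO were lost. The calls of HPPD, HGO, TAT7, DRM2 and KFB20 in f1f3, and of ASN2 and DYL1 in pifq, held without each single library in turn, and every other call in this list was lost without at least 1 library.

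Among the genes of asparagine metabolism, ASN2 was at 535 and 515 in Col, 863 and 991 in f1f3, and 2756 and 3217 in pifq. It rose in both mutants, by log2 fold changes of 0.82 (SE 0.17, limma adjusted p = 0.0134) and 2.5 (SE 0.17, adjusted p = 0.000294). ASN3 rose in f1f3 (0.84, SE 0.16, adjusted p = 0.0104), as did ASPGB1 (AT3G16150), an asparaginase gene at 28.3 and 37.6 in Col and 88.9 and 105 in f1f3 (1.54, SE 0.34, adjusted p = 0.0155). Neither passed in pifq (limma adjusted p = 0.121 and 0.138), and the asparaginase gene ASPGA1 (AT5G08100) passed in neither mutant (0.37, adjusted p = 0.343, and -0.04, adjusted p = 0.959). ASN2 and ASN3 share 87.0% of aligned coding bases, and ASN1 and ASN2 71.3%.

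Among starvation genes, DRM2 (AT2G33830), a dormancy-associated gene, was at 6969 and 3777 in Col, 238 and 93.0 in f1f3, and 3637 and 3580 in pifq. It fell in f1f3 (-5.10, SE 0.43, limma adjusted p = 0.00115) and did not pass in pifq (-0.51, adjusted p = 0.518). Its relative DYL1 (AT1G28330) was at 30845 and 19692 in Col, 12179 and 5786 in f1f3, and 4449 and 2591 in pifq. DYL1 fell in both (-1.55, adjusted p = 0.0296, and -2.86, adjusted p = 0.00857). EXO (AT4G08950), which promotes growth and is related to the EXL genes, fell in pifq (-2.13, SE 0.32, adjusted p = 0.0104), and EXL3 (AT5G51550) rose in f1f3 (1.09, SE 0.22, adjusted p = 0.0123). The F-box gene KFB20 (AT1G80440), a relative of KFB50, fell in f1f3 from 3817 and 3339 to 413 and 119 (-4.01, SE 0.52, adjusted p = 0.00332). KFB01 (AT1G15670) fell as well (-1.31, adjusted p = 0.0143). The 5 other SnRK1 subunit genes, KIN10, KIN11, AKINBETA2, AKINBETA3 and SNF4, did not pass in either mutant, with log2 fold changes between -0.39 and 0.34.

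In branched-chain breakdown, BCAT3 (AT3G49680), a plastid aminotransferase of synthesis, and LPD2 (AT3G17240), an E3 subunit shared with other mitochondrial complexes, rose in f1f3 (0.72 and 0.64, limma adjusted p = 0.0382 and 0.0253). HML1 (AT2G26800), hydroxymethylglutaryl-CoA lyase at the end of leucine breakdown, fell (-0.65, adjusted p = 0.0499). None of the 7 genes passed in pifq, where BCAT3 came nearest (0.64, adjusted p = 0.109). PRODH2 (AT5G38710), the second proline dehydrogenase, fell in f1f3 (-2.75, SE 0.46, adjusted p = 0.00654), from 65.5 and 107 to 13.8 and 9.7, and was at 23.2 and 22.7 in pifq (-1.82, adjusted p = 0.0548). The GABA transaminase gene POP2 (AT3G22200) and the aldehyde dehydrogenase gene ALDH7B4 (AT1G54100) fell in f1f3 (-0.92 and -0.98, adjusted p = 0.00876 and 0.0211), and the glutamate decarboxylase gene GAD1 (AT5G17330) fell in pifq (-0.97, adjusted p = 0.0247).

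In tyrosine and sulfur amino acid breakdown, 5 of 6 genes fell in f1f3 (limma, median log2 fold change -1.41) and 2 in pifq (median -0.90), beside 12.8% and 2.87% of all genes. These genes were listed with earlier results of these data known, so the counts are a description only. HPPD (AT1G06570), 4-hydroxyphenylpyruvate dioxygenase, was at 1664 and 2273 in Col, 288 and 256 in f1f3, and 627 and 1200 in pifq (-2.84, SE 0.30, limma adjusted p = 0.00226, and -1.16, adjusted p = 0.0615). HGO (AT5G54080), homogentisate dioxygenase of the next step, fell in both mutants (-2.14, adjusted p = 0.00293, and -1.19, adjusted p = 0.0374). MGL (AT1G64660), methionine gamma-lyase, also fell in both (-1.10, adjusted p = 0.0457, and -1.97, adjusted p = 0.0153). The aminotransferase gene TAT7 (AT5G53970) fell in f1f3 (-1.71, adjusted p = 0.0074), whereas FAH (AT1G12050), the last enzyme of the tyrosine route, did not pass in either mutant.

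Among the other TPS genes, TPS1 (AT1G78580), the active trehalose-6-phosphate synthase, was at 224 and 246 in Col, 448 and 631 in f1f3, and 547 and 718 in pifq. TPS1 rose in both mutants (1.18, SE 0.23, limma adjusted p = 0.0114, and 1.41, SE 0.23, adjusted p = 0.0140). TPS5 (AT4G17770) rose in f1f3 (0.84, adjusted p = 0.018) and TPS6 (AT1G68020) fell (-0.89, adjusted p = 0.0114), although both belong to class II. Of the bZIP genes, bZIP25 (AT3G54620) fell in f1f3 (-0.63, adjusted p = 0.0255).

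**Figure D5:**
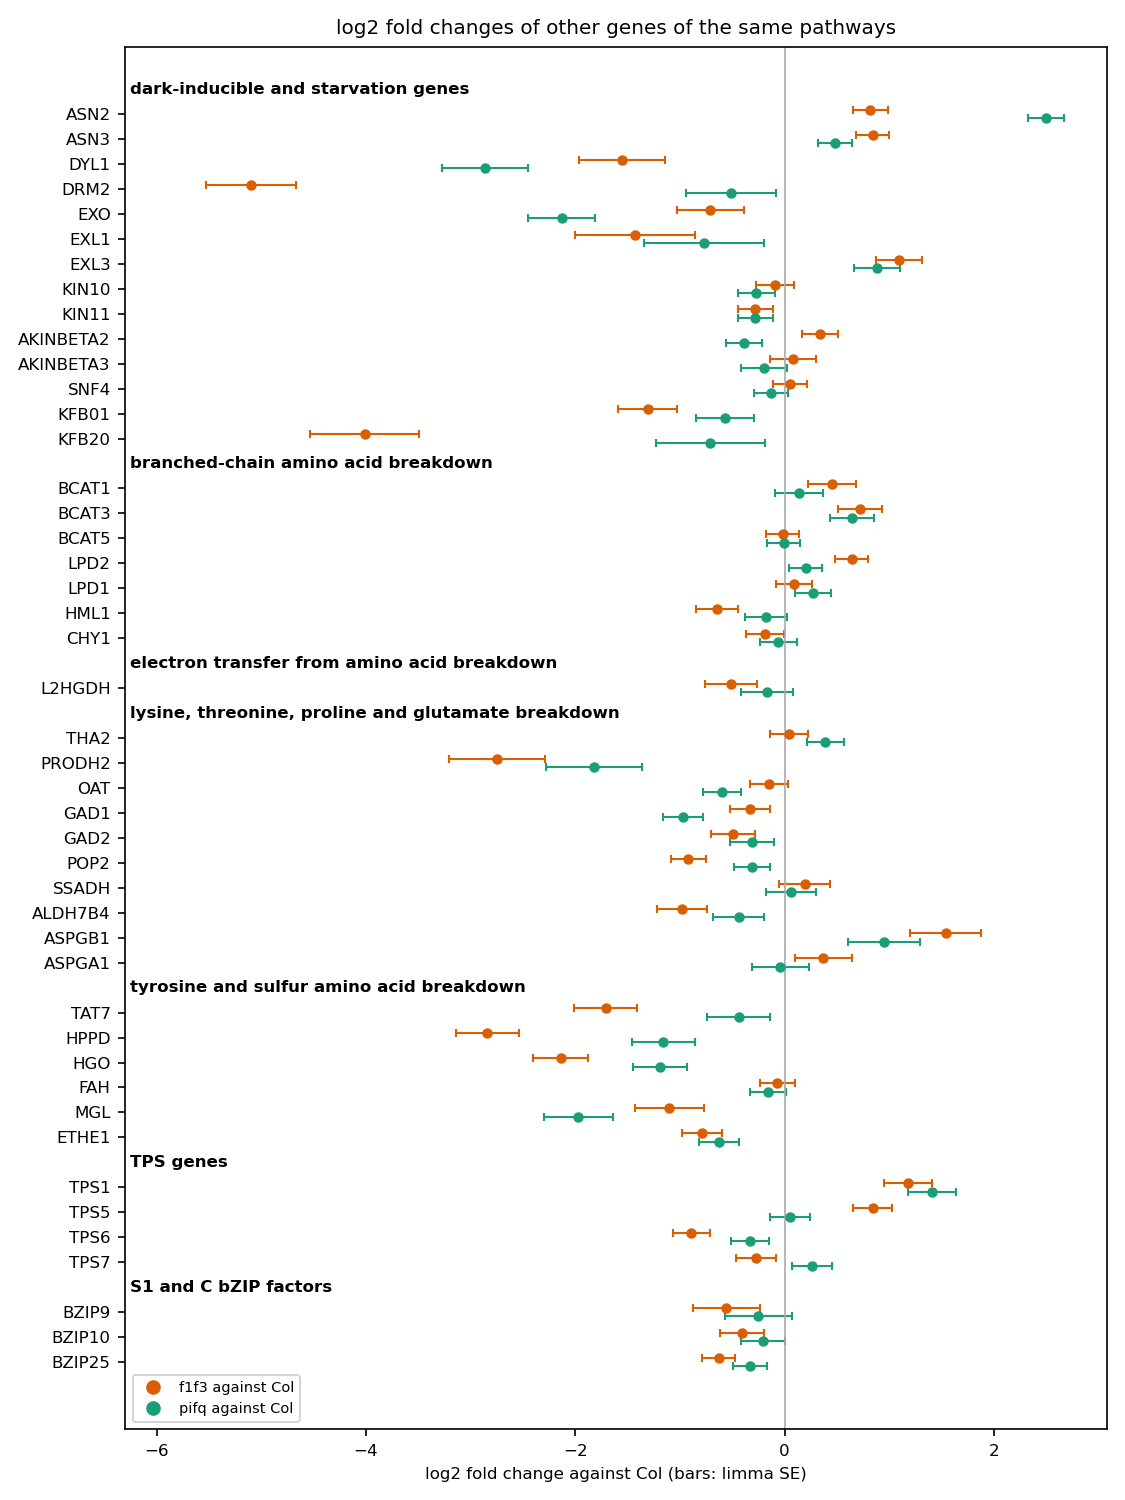
log2 fold change of 45 other genes of the same pathways in f1f3 (orange) and pifq (green) against Col, with bars for the limma standard error (n = 2 libraries per group). In f1f3 15 fell and 8 rose, and ASN2 at 2.5 in pifq lies farthest to the right.

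Replicates of these genes differed in a shared direction in Col and pifq. Of the 36 genes, 27 were higher in Col replicate 2 than in Col replicate 1 (75.0%, median log2 difference 0.36), against 49.4% of all genes. In pifq 31 were higher in replicate 2 (86.1%, median 0.46), against 51.8% of all genes. In f1f3 15 were (41.7%, against 48.4%), and ASN1, KFB50 and EXL2, which had the widest gaps, were lower in replicate 2. For DIN2 the Col libraries differed 4.04-fold, and for ASN1 the pifq libraries differed 4.31-fold.

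Annotated gene bodies of 18 of the 37 genes overlap another gene, in all cases on the opposite strand. Whether the counting used strand is not given in the sources used here, so reads of such partners cannot be told apart. For ASN1 the partner is not analysed here. The partner was above the gene itself in all 6 libraries for 5 genes, THA1, BCDH BETA1, ETFQO, D2HGDH and GDH3, and in some libraries for 3, BCAT2 (4 libraries), DIN4 (2) and KFB50 (1). The partners of BCAT2, THA1, ETFQO and D2HGDH reached values of 1176, 1373, 1761 and 1880.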

How the data were processed

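Reads from 6 libraries (3 genotypes, 2 replicates each) had been processed by the authors. Per the submitters' processing notes the tools were edgeR, HTSeq 0.6.1, TopHat2 2.1.0 and Trimmomatic, and the build was TAIR10; the role of each tool and the strandedness are not given in the sources used here. The deposited signal values are gene reads divided by a factor per library, to 1 decimal. In each library 99.984 to 100% of the values were whole multiples of the value of 1 read (0.7985 to 1.2851), within a tolerance of 0.0505, and this gave totals of 17.9 and 23.8 M reads for Col, 20.2 and 21.6 M reads for f1f3 and 27.7 and 19.4 M reads for pifq.

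The 20581 genes that reached a value of 10 in 2 or more libraries were tested with limma 3.58.1 (R 4.3.3) on log2 of the value plus 1, with an intensity trend, two-sided, all 6 libraries in 1 fit (3 residual and 5.15 prior degrees of freedom), and Benjamini-Hochberg adjustment over all genes tested. Fold changes are on that scale, which understates changes of low genes. edgeR 4.0.16 and DESeq2 1.42.0 were alternatives on the recovered reads. The genes, the pathway list and the markers were chosen with earlier results of these data known. Every gene of the 41 could be named; values per library were given for those leading or opposing their subgroup, and from the pathway list up to 4 genes per subgroup with the smallest p plus relatives of the 41. Gene models, exon lengths and upstream sequences are from RefSeq (TAIR10.1); locus identifiers were matched directly.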

Additional observations from a re-analysis of the deposited data

How the results depend on the processing

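The alternatives were a pseudocount of 0.5 or 10, no filter, library totals, edgeR, DESeq2, only the 4 libraries compared, a replicate block and leaving out each library. No called gene changed direction under any of them. The median log2 fold change of the 36 genes in f1f3 ranged from -1.96 to -1.57 over all alternatives. The 31 calls in f1f3 ranged from 22 to 28 when a Col or f1f3 library was left out, where leaving out Col replicate 2 lost 9 genes and leaving out f1f3 replicate 2 lost 9 (in both cases DIN11, EXL4, AT5G09300, BCDH BETA1, MCCB, ALDH6B2, ETFQO, D2HGDH and GDH1). The 3 calls in pifq became 8 with DESeq2 and 5 with only the 4 libraries compared, and 1 to 5 when a library was left out. The 22 calls in pifq against f1f3 ranged from 5 to 23 on leaving out a library, the 23 pathway calls in f1f3 from 7 to 22, and the 7 pathway calls in pifq from 2 to 7. A group left with 1 library is assumed to vary like the others. The cause of these moves was not tested, beyond the fewer samples. Scaling by library totals shifted the all-gene median by 0.12 in f1f3 against Col.

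With a replicate block the 3 calls in pifq became 10 and the 7 pathway calls 13. The labels do not say that numbers mark shared batches, and there are 2 numbers only. The differences between replicate 2 and replicate 1 correlated across genes at 0.345 (Col and f1f3), 0.444 (Col and pifq) and 0.215 (f1f3 and pifq). The block moved the 31 calls in f1f3 to 32 and the 22 in pifq against f1f3 to 27. Genes with few reads (THA1, DIN2 and DIN11 in f1f3, GDH3 everywhere) are limited by depth.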
